A study of Mus musculus with 28 samples.

Results

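The genes described here move the amino acid arginine into cells and divide it between competing enzymes: the cationic amino acid transporters Slc7a2 and Slc7a1, the arginases Arg1 and Arg2, the inducible nitric oxide synthase Nos2 and the ornithine decarboxylase Odc1. Their members are the ChIP-seq peaks whose nearest protein-coding gene span on mouse build mm10, within 50 kb, belongs to one of the 6 genes. By this rule 28 of 63313 peaks of H3K27ac, the acetylation of histone H3 that marks active promoters and enhancers, and 4 of 8394 peaks of the glucocorticoid receptor (GR) were members. The H3K27ac members were 3 peaks of Slc7a2, 3 of Slc7a1, 4 of Arg1, 5 of Arg2, 5 of Nos2 and 8 of Odc1, and the GR members were 1 peak of Slc7a2, 2 of Arg1 and 1 of Nos2. No GR peak was assigned to Slc7a1, Arg2 or Odc1.

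The cells were bone marrow-derived macrophages from male C57BL/6 mice 8 to 10 weeks old, differentiated for 5 days with L-cell conditioned medium, a source of the growth factor M-CSF. They received for 24 h either 500 nM of the natural mouse glucocorticoid corticosterone (Cort), 100 nM of the synthetic steroid dexamethasone (Dex), 10 ng/ml of interleukin 4 (IL4, a cytokine that signals through STAT6), or vehicle. The titles of the H3K27ac vehicle libraries give no time. H3K27ac was measured in 3 libraries per group, and GR in 4 Cort, 4 Dex, 3 IL4 and 4 vehicle libraries in batches 1 and 2, with all IL4 libraries in batch 2. The doses of the steroids differ, so their values are set side by side. No label ties the libraries to separate animals or cultures, and p-values measure only the spread between libraries.

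Macrophages take up arginine mainly through cationic amino acid transporters, of which Slc7a2 encodes CAT2 and Slc7a1 the widely expressed CAT1. Arginase 1, in the cytosol, and arginase 2, in mitochondria, cut arginine to ornithine and urea, while the inducible synthase turns it into nitric oxide and citrulline. Ornithine decarboxylase makes putrescine from ornithine and so opens the polyamine pathway. Arg1 is a classic marker gene of mouse macrophages activated by IL4, and Nos2 of those activated by interferon gamma and bacterial products.

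Levels per peak are TMM-scaled CPM (reads of the peak scaled to a common library size), and changes are on the log2 scale, each with its standard error, from a quasi-likelihood fit in edgeR. A peak was called where its Benjamini-Hochberg adjusted p, taken over every tested peak of its assay, lay under 0.05. The libraries held 6829787 to 15695771 reads in H3K27ac peaks or 900063 to 1981582 in GR peaks, and the top 1% of GR peaks by reads held 77.6% to 96.2% of the GR reads. Enough reads for a test were present at 27 of the 28 H3K27ac members and at 2 of the 4 GR members. The peaks of each gene are numbered by coordinate. A change in the share of cells that carry the mark and a change of the mark per cell cannot be told apart in such bulk libraries. The macrophage markers Adgre1, Csf1r, Spi1, Cd68, Itgam and Mertk all had H3K27ac peaks.

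Of the 6 genes, Slc7a1 and Odc1 matched a RefSeq table of promoter windows of 300 bases around annotated starts (build GRCm38.p6), and Slc7a2, Arg1, Arg2 and Nos2 did not. The start windows that lie inside H3K27ac peaks are shown because no change there passed the test under any treatment, while other peaks of the same genes were called. The Slc7a1 start window (5:148399855-148400154, minus strand) lies in Slc7a1 peak 3, and the Odc1 start window (12:17544623-17544922, plus strand) in Odc1 peak 5. Capitals mark the GC box GGGCGG, read on both strands.
Slc7a1 start: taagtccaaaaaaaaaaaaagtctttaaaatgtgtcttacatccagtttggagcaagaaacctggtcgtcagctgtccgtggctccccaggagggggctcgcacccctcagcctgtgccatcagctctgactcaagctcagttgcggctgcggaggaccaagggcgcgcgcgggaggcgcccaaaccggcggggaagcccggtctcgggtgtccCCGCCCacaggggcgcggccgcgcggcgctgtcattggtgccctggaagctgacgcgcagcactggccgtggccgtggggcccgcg
Odc1 start: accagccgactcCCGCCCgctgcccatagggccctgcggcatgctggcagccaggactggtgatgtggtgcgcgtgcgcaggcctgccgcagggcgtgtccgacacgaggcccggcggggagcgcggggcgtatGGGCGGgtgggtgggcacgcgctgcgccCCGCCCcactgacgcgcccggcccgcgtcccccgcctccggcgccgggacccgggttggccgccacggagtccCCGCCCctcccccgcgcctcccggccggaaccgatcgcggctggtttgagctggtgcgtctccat
The Slc7a1 window held 1 GC box and 65.0% G or C bases, and the Odc1 window 4 GC boxes and 78.0%, against a median of 52.7% over 32851 promoters, of which 35.7% held a GC box. A second annotated start of Slc7a1 lay outside all H3K27ac peaks. Neither window shown held the STAT6 motif TTCNNNNGAA, present in 6.95% of promoters, or the glucocorticoid response element GNACANNNTGTNC, present in 0.475%, searched on both strands.

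IL4 raised H3K27ac at all 3 peaks of Slc7a2, all 4 peaks of Arg1 and 1 peak each of Slc7a1, Arg2 and Odc1, and at no tested peak of Nos2. These are 10 of 27 tested members higher and 0 lower, where 14.7% of all 59881 tested peaks were higher and 12.9% lower with IL4. One of the 10, Arg1 peak 1, passed the count filter mainly through its IL4 reads. The median change of the members was 0.47 with IL4, against -0.02 over all tested peaks. Dex raised 3 members (Slc7a2 peaks 1 and 3 and Arg2 peak 5) and lowered 2 (Odc1 peaks 7 and 8), where 2.90% of all tested peaks were higher and 2.34% lower. Cort raised Slc7a2 peak 1 and no other member, and lowered 0 of 27, where 1.18% of all peaks were higher and 0.376% lower. The member medians were 0.17 with Cort and 0.12 with Dex, against 0.00 and 0.01 over all tested peaks. All 3 comparisons use the same vehicle libraries.

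**Figure D1:**
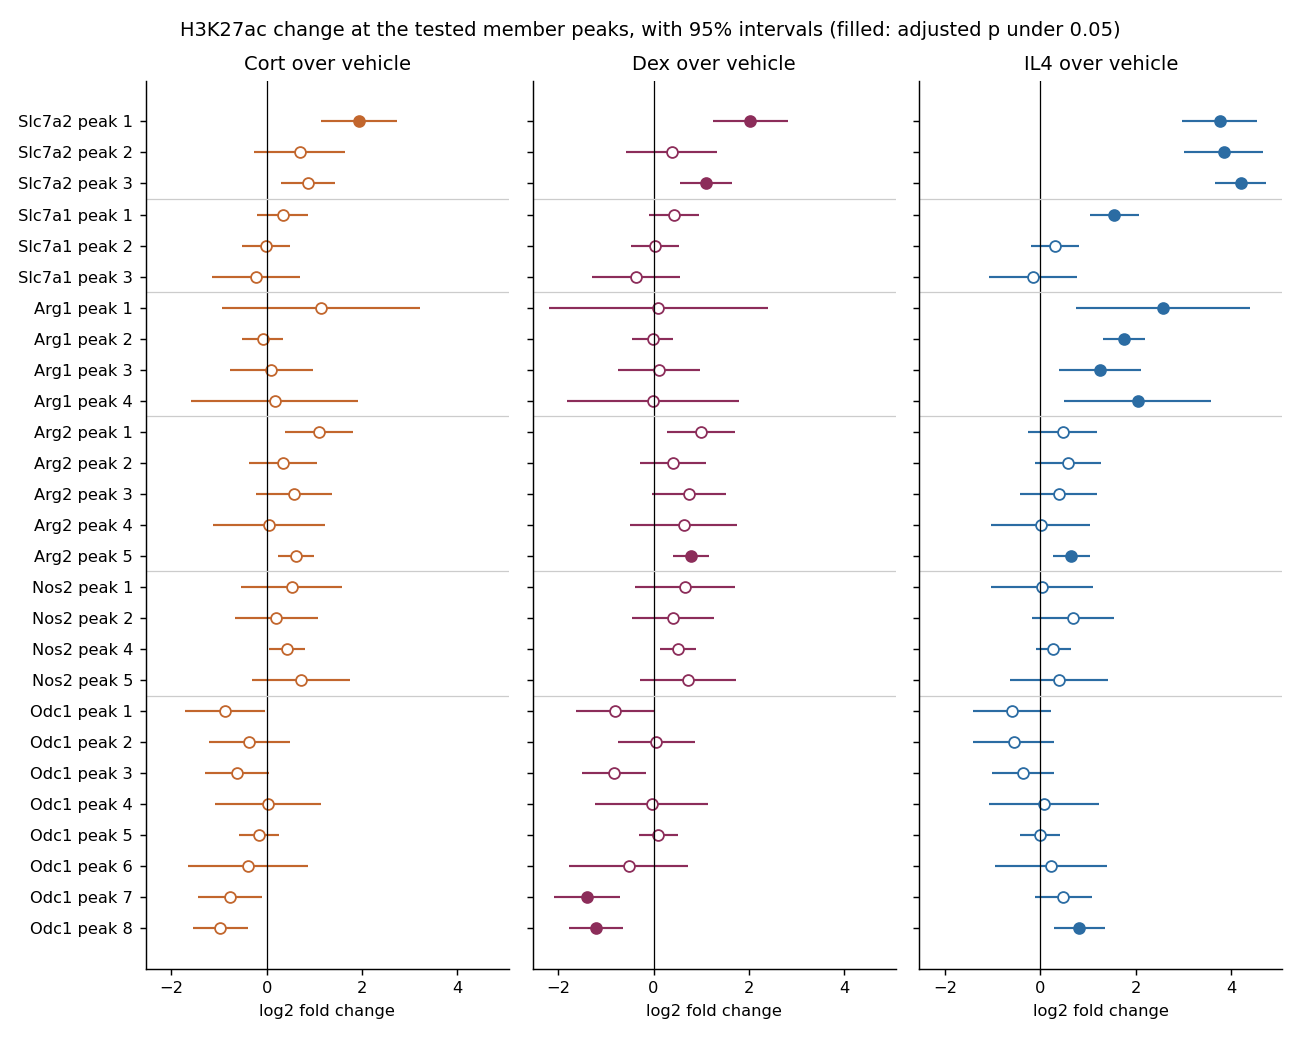
Log2 fold change of H3K27ac over vehicle (x axis) with its 95% interval at the 27 tested peaks of the 6 genes (rows), after Cort, Dex and IL4, with filled circles at an adjusted p under 0.05. With IL4 the Slc7a2 peaks lie farthest to the right, at 3.76 to 4.20, and with Dex the Odc1 peaks 7 and 8 lie at -1.40 and -1.21.

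H3K27ac libraries with the same replicate number deviated together, which the main fit did not model. A fit with the replicate number as a block called more peaks. With the block, members called in either direction numbered 5 of 27 for Cort, 8 for Dex and 11 for IL4, where 12.6%, 20.3% and 43.5% of all tested peaks were called. The members called with the block alone are given at their genes. Every H3K27ac member call of the main fit held with the block. The calls lost below without 1 library come from fits without the block.

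Slc7a2 had the largest IL4 changes of the 27 members. Its peak 1 (8:40850641-40852344, 10.0 kb before the gene span at 8:40862341-40922070) had 8.50, 5.23 and 8.64 CPM in Cort libraries, 9.91, 5.71 and 8.19 CPM in Dex libraries and 27.2, 26.1 and 25.4 CPM in IL4 libraries, against 3.59, 1.47 and 1.12 CPM in vehicle libraries. Every library of each treatment lay above every vehicle library, and every IL4 library above every steroid library. The change over vehicle was 1.93 ± 0.37 with Cort (adjusted p = 0.0184), 2.03 ± 0.37 with Dex (adjusted p = 0.00688) and 3.76 ± 0.37 with IL4 (adjusted p = 1.78e-05). Without the block it was the only one of the 27 tested H3K27ac members called with all 3 treatments. With the block Slc7a2 peak 3, Arg2 peak 5 and Odc1 peak 8 were too, the last lower with the steroids and higher with IL4. The share of all tested peaks called with all 3 is not given here, and the 3 comparisons share the vehicle libraries. At Slc7a2 peak 1 IL4 exceeded Cort by 1.83 ± 0.33 (adjusted p = 0.00122) and Dex by 1.73 ± 0.32 (adjusted p = 0.00147). The Cort call was lost without vehicle 2, vehicle 3, Cort 1 or Cort 3, with a change of 1.61 to 2.53 and an adjusted p of up to 0.114 over all libraries left out. The Dex and IL4 calls held without any single library, with adjusted p up to 0.0444 for Dex and 0.000261 for IL4.

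Slc7a2 peak 2 (8:40854962-40856394, 5.9 kb before the span, over the pseudogenes Gm5345 and Gm8445) was called with IL4 and with neither steroid. It had 1.42, 0.837 and 1.01 CPM in Cort libraries, 1.47, 0.724 and 0.512 CPM in Dex libraries and 11.3, 9.81 and 7.31 CPM in IL4 libraries, against 0.991, 0.491 and 0.558 CPM in vehicle libraries. The IL4 libraries stood above all others, and the steroid libraries overlapped with vehicle. It rose by 3.84 ± 0.38 with IL4 (adjusted p = 1.98e-05), and its change was 0.69 ± 0.44 with Cort (adjusted p = 0.543, 95% interval -0.26 to 1.64) and 0.39 ± 0.44 with Dex (adjusted p = 0.704, 95% interval -0.57 to 1.34). The IL4 level exceeded that of Cort by 3.15 ± 0.37 (adjusted p = 5.46e-05) and Dex by 3.46 ± 0.37 (adjusted p = 2.58e-05). Whether reads shared with copies of the pseudogenes were counted here was not tested.

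Slc7a2 peak 3 (8:40861204-40863237) covers the start of the gene span. It had 3.69, 2.30 and 3.03 CPM in Cort libraries, 4.16, 3.46 and 2.85 CPM in Dex libraries and 32.8, 30.0 and 26.3 CPM in IL4 libraries, against 1.98, 1.72 and 1.24 CPM in vehicle libraries. No library of any treatment overlapped with vehicle, and the IL4 libraries stood far above the steroid libraries. The IL4 rise of 4.20 ± 0.25 (adjusted p = 8.55e-07), an 18.3-fold change, was the largest of all members. The change was 1.10 ± 0.25 with Dex (adjusted p = 0.0249) and 0.87 ± 0.26 with Cort (adjusted p = 0.133, or 0.0243 with the replicate block). The Dex call was lost without vehicle 2, vehicle 3 or Dex 1, with changes of 0.92 to 1.24 over all libraries left out and an adjusted p of up to 0.126. IL4 exceeded Cort by 3.33 ± 0.24 (adjusted p = 1.43e-06) and Dex by 3.10 ± 0.23 (adjusted p = 1.63e-06).

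**Figure D2:**
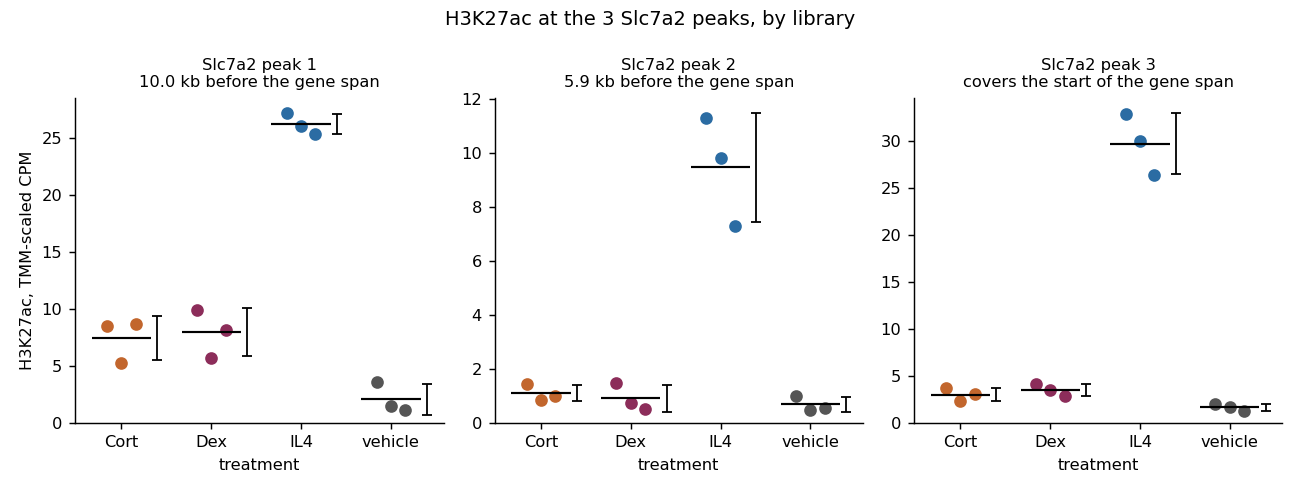
H3K27ac in TMM-scaled CPM (y axis, from 0) at the 3 Slc7a2 peaks in each library (points), with the group mean (line) and its SD (bar beside it, n = 3), by treatment (x axis). IL4 libraries are highest at every peak, and the Cort and Dex libraries clear the vehicle libraries at peaks 1 and 3 but not at peak 2.

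Per kb, peak 1 was the highest and peak 2 the lowest of the Slc7a2 peaks in every group. With IL4, peaks 1, 2 and 3 averaged 15.4, 6.62 and 14.6 CPM per kb of peak, with Cort 4.38, 0.759 and 1.48, with Dex 4.66, 0.629 and 1.72, and in vehicle 1.21, 0.475 and 0.810 CPM per kb. Among all 63313 peaks these IL4 levels per kb stood at percentiles 92.8, 70.3 and 91.6, against 4.25, 0.220 and 1.37 in vehicle libraries. Cort and Dex brought peak 1 to percentiles 54.5 and 56.9, while peaks 2 and 3 stayed at percentiles 0.621 to 10.2. The reads behind these levels numbered 18 to 376 per library at peak 1, 6 to 121 at peak 2 and 16 to 388 at peak 3.

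Across the 12 H3K27ac libraries, the log2 CPM of Slc7a2 peak 1 correlated with that of peaks 2 and 3 at Pearson's r of 0.846 and 0.900. Peaks of other genes tracked it more closely. The 5 highest were at Hfe (13:23704134-23707688, r = 0.973), Knop1 (7:118848955-118849995, r = 0.969), Cradd (10:95296835-95299333, r = 0.967), Tbc1d23 (16:57245966-57247767, r = 0.964) and Ints7 (1:191598447-191600285, r = 0.962). These values describe the likeness over 12 libraries in 4 groups, chosen from all tested peaks for being highest.

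Slc7a1, the constitutive transporter gene, had 3 H3K27ac peaks, of which 1 was called. Peak 1 (5:148342040-148343175, inside the span at 5:148327410-148399904) had 2.69, 3.07 and 3.03 CPM in Cort libraries, 2.94, 3.05 and 3.44 CPM in Dex libraries and 5.55, 5.75 and 9.07 CPM in IL4 libraries, against 2.48, 2.38 and 2.17 CPM in vehicle libraries. All libraries of each treatment lay above the vehicle libraries, by a small margin for the steroids. The change was 1.55 ± 0.24 with IL4 (adjusted p = 0.000431), 0.34 ± 0.25 with Cort (adjusted p = 0.622) and 0.43 ± 0.25 with Dex (adjusted p = 0.363). Acetylation with IL4 exceeded that with Cort by 1.21 ± 0.24 (adjusted p = 0.00221) and Dex by 1.11 ± 0.23 (adjusted p = 0.00316).

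At the start of Slc7a1, peak 3 (5:148398954-148400467) held 7.23, 15.5 and 5.95 CPM in Cort libraries, 8.07, 13.9 and 4.31 CPM in Dex libraries and 11, 11 and 8.80 CPM in IL4 libraries, against 7.92, 17.3 and 8.75 CPM in vehicle libraries. The groups overlapped, and library 2 was the highest of the Cort, Dex and vehicle groups. The changes were -0.22 ± 0.43 with Cort, -0.37 ± 0.43 with Dex and -0.15 ± 0.43 with IL4, with 95% intervals from -1.30 to 0.77 over the 3 treatments. Peak 2 (5:148378114-148380358), inside the gene, averaged 9.32 ± 1.38 CPM with Cort, 9.64 ± 1.95 CPM with Dex, 11.7 ± 1.49 CPM with IL4 and 9.42 ± 2.90 CPM with vehicle (SD, n = 3 each). None of its 3 changes, of -0.01 to 0.31, passed the test.

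Arg1 peaks were called with IL4 and with neither steroid. Its main peak, peak 2 (10:24925977-24932480), covers the upper end of the span at 10:24915207-24927470 and the predicted non-coding RNA genes Gm40616 and Gm36228 in part. It had 58.4, 40.6 and 39.7 CPM in Cort libraries, 60.4, 43.7 and 40.9 CPM in Dex libraries and 188, 158 and 150 CPM in IL4 libraries, against 60.5, 42.6 and 44.0 CPM in vehicle libraries. The IL4 libraries stood above all others, and the steroid and vehicle libraries lay together, with library 1 the highest of each group. The change was 1.75 ± 0.20 with IL4 (adjusted p = 6.01e-05), -0.08 ± 0.20 with Cort (adjusted p = 0.912, 95% interval -0.52 to 0.35) and -0.02 ± 0.20 with Dex (adjusted p = 0.972, 95% interval -0.45 to 0.41). Between treatments, IL4 exceeded Cort by 1.84 ± 0.20 (adjusted p = 3.96e-05) and Dex by 1.77 ± 0.20 (adjusted p = 4.15e-05). Per kb, this peak averaged 25.4 CPM with IL4, at percentile 98.9 of all peaks, against 7.54 CPM per kb in vehicle, at percentile 74.9.

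The other Arg1 peaks were weaker and rose with IL4 too. Peak 3 (10:24949735-24951447, 22.3 kb above the span) had 23.2, 14.1 and 19 CPM in IL4 libraries, against 12.1, 4.42 and 7.44 CPM in vehicle libraries, a change of 1.24 ± 0.40 (adjusted p = 0.0319). Peak 4 (10:24952354-24952945, 24.9 kb above the span) had 3.94, 2.59 and 1.90 CPM in IL4 libraries, against 1.36, 0.737 and 0.124 CPM in vehicle libraries, a change of 2.04 ± 0.71 (adjusted p = 0.0481). Peak 1 (10:24925468-24925882, inside the gene) had 3.08, 1.13 and 0.677 CPM in IL4 libraries, against 0.495, 0 and 0.310 CPM in vehicle libraries, a change of 2.57 ± 0.85 (adjusted p = 0.0381). At each of the 3 peaks the IL4 libraries lay above the vehicle libraries, while peaks 1 and 4 rest on 0 to 32 reads per library. Peak 1 held 25, 14 and 10 reads in IL4 libraries and 0 to 9 in all others. It thus passed the count filter mainly through the group where it is high, and its call adds no separate support.

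Leaving out 1 library ended the IL4 call of Arg1 peak 1 in 3 of 12 cases, of peak 3 in 4 and of peak 4 in 7, with changes of 1.81 to 3.10, 0.95 to 1.66 and 1.44 to 2.75 and adjusted p up to 0.166, 0.125 and 0.162. Vehicle 2, vehicle 3 and IL4 1 ended all 3 calls, IL4 3 those of peaks 3 and 4, and IL4 2, Cort 1 and Cort 3 that of peak 4. Total-count scaling also ended the calls of peak 3 (adjusted p = 0.0607) and peak 4 (adjusted p = 0.0622). The fit with the replicate block kept all 3 calls, with adjusted p of 0.00223, 4.98e-07 and 0.000226 for peaks 1, 3 and 4. With Cort and Dex, none of the 4 Arg1 peaks was called, with changes of -0.08 to 1.14 for Cort and -0.02 to 0.12 for Dex. Against Dex, IL4 was higher at all 4 peaks (changes of 1.12 to 2.47, adjusted p up to 0.0498), and peak 2 stayed called without any single library. In that contrast peak 1 was called without vehicle 2, Cort 2, Cort 3 or IL4 3 but not without any of the other 8 libraries (adjusted p up to 0.199). Peak 3 was lost without vehicle 3, Cort 3, Dex 2, Dex 3, IL4 1 or IL4 3 (up to 0.151), and peak 4 without vehicle 2, Cort 1, Cort 3, Dex 2, Dex 3 or any IL4 library (up to 0.145). Total-count scaling ended the calls of peaks 1, 3 and 4 over Dex (adjusted p = 0.0537, 0.0759 and 0.0591). Factors from the least-read 25% of peaks ended that of peak 3 (0.0563). The block kept these 3 calls over Dex (adjusted p = 0.00251, 2.16e-06 and 0.000219). Against Cort it was higher at peak 2, and the others (changes of 1.14 to 1.87) were not called (adjusted p = 0.203, 0.0513 and 0.0727 for peaks 1, 3 and 4). With the replicate block the adjusted p was 0.0459 for peak 1, 2.62e-06 for peak 3 and 0.00078 for peak 4. Peak 3 was also called in DESeq2 (adjusted p = 0.0220), with median-of-ratios scaling (0.0464), over the peaks marked TRUE in the authors' column of filtered peaks (0.0460) and in 5 of 12 fits without 1 library, and peak 4 over the marked peaks (0.0487) and in 2 of 12.

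Across the 12 libraries, the peaks of other genes most like Arg1 peak 2 were at Tmem52b (6:129513537-129515809, Pearson's r = 0.990) and at Mark1 (1:184902938-184905124), Ubl3 (5:148499736-148503418), Nek6 (2:38470809-38474108) and P2ry1 (3:61035085-61036704), each with r = 0.988. Its own neighbours, peaks 1, 3 and 4, had r of 0.778, 0.858 and 0.823.

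Arg2, the mitochondrial arginase gene, had 5 H3K27ac peaks, all inside its span at 12:79130788-79156301. Peak 5 (12:79140133-79142358, also over the non-coding RNA gene Gm40462) had 31.0, 25 and 26.0 CPM in Cort libraries, 29.1, 25.6 and 37.2 CPM in Dex libraries and 30.4, 25 and 28.4 CPM in IL4 libraries, against 16.8, 15.6 and 20.9 CPM in vehicle libraries. All libraries of each treatment lay above the vehicle libraries, at levels that overlapped between treatments. The change was 0.62 ± 0.18 with Cort (adjusted p = 0.114, or 0.00241 with the replicate block), 0.78 ± 0.18 with Dex (adjusted p = 0.0215) and 0.65 ± 0.18 with IL4 (adjusted p = 0.0148). The Dex call was lost without vehicle 1, vehicle 2, Dex 1 or Dex 3 (changes of 0.62 to 0.94, adjusted p up to 0.107 over all libraries left out). The IL4 call was lost without vehicle 1, vehicle 2 or IL4 1 (changes of 0.56 to 0.80, adjusted p up to 0.0694), and with library factors from the least-read 25% of peaks (0.49, adjusted p = 0.0909). IL4 differed from Cort by 0.03 ± 0.18 (95% interval -0.34 to 0.41) and from Dex by -0.14 ± 0.17 (95% interval -0.51 to 0.24).

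Of the other Arg2 peaks none was called in the fit of all libraries without the block. Peak 1 (12:79135561-79136511), named after its values were seen, had 5.24, 3.49 and 4.60 CPM in Cort libraries, 3.67, 2.81 and 5.77 CPM in Dex libraries and 3.20, 2.67 and 2.71 CPM in IL4 libraries, against 2.48, 1.23 and 2.48 CPM in vehicle libraries. Its change was 1.09 ± 0.33 with Cort (adjusted p = 0.137, or 0.00453 with the block), 1.00 ± 0.33 with Dex (adjusted p = 0.104, or 0.00555 with the block and 0.0452 without Dex 2) and 0.47 ± 0.34 with IL4 (adjusted p = 0.337). With the block it was the only member lower with IL4 than with Cort (-0.63, adjusted p = 0.043). At Arg2 peaks 2 to 4 the values were 0.05 to 0.58 with Cort, 0.41 to 0.75 with Dex and 0.01 to 0.58 with IL4, and none passed the test.

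Nos2 had 5 H3K27ac peaks below its span at 11:78920787-78960226, of which 4 had enough reads and 0 were called with any treatment. Peak 4 (11:78915857-78917466, 3.3 kb from the span), the most abundant, had 17.0, 19.3 and 23.6 CPM in Cort libraries, 22.5, 20.7 and 20.9 CPM in Dex libraries and 14.4, 19 and 20.5 CPM in IL4 libraries, against 16.5, 13.4 and 14.9 CPM in vehicle libraries. Cort and Dex libraries lay above the vehicle libraries, and IL4 libraries overlapped with them. The change was 0.42 ± 0.18 with Cort (adjusted p = 0.298), 0.52 ± 0.17 with Dex (adjusted p = 0.110, or 0.0121 with the block) and 0.27 ± 0.17 with IL4 (adjusted p = 0.273).

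Nos2 peak 2 (11:78886600-78888312, 32.5 kb from the span) had the smallest p of the gene with IL4. It held 6.52, 14.4 and 6.51 CPM in Cort libraries, 6.85, 16.5 and 8.55 CPM in Dex libraries and 10.2, 17.7 and 11 CPM in IL4 libraries, against 6.31, 11.7 and 6.20 CPM in vehicle libraries. In each group library 2 was the highest, and the groups overlapped. Its IL4 change was 0.68 ± 0.40 over vehicle (adjusted p = 0.228, or 0.000792 with the block) and 0.48 ± 0.40 over Cort (adjusted p = 0.418, or 0.00907 with the block). Peak 5, 0.1 kb from the span, and peak 1 had log2 values of 0.03 to 0.73 over the 3 treatments, none of which passed, and peak 3 had 0 to 22 reads per library and was not tested.

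Odc1, with 8 H3K27ac peaks, held the 2 members that fell with Dex. The one with more reads, peak 8 (12:17590536-17592306), lies 39.0 kb above the span at 12:17544808-17551502. It had 4.82, 4.53 and 2.36 CPM in Cort libraries, 3.18, 3.94 and 2.85 CPM in Dex libraries and 16.9, 13.3 and 10.7 CPM in IL4 libraries, against 7.06, 8.03 and 7.94 CPM in vehicle libraries. All steroid libraries lay below all vehicle libraries and all IL4 libraries above them. The change was -1.21 ± 0.27 with Dex (adjusted p = 0.0196), -0.98 ± 0.27 with Cort (adjusted p = 0.0954, or 0.00232 with the block) and 0.82 ± 0.25 with IL4 (adjusted p = 0.0266). IL4 exceeded Cort by 1.79 ± 0.27 (adjusted p = 0.000323) and Dex by 2.02 ± 0.27 (adjusted p = 0.000121), and both calls held without any single library. The Dex call was lost without vehicle 2, vehicle 3, Dex 1 or Dex 3 (adjusted p up to 0.0943). The IL4 call was lost without vehicle 1, vehicle 2, vehicle 3, IL4 1 or IL4 2 (adjusted p up to 0.101), and with library factors from the least-read 25% of peaks (0.66, adjusted p = 0.0536).

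Odc1 peak 7 (12:17588967-17589694, 37.5 kb above the span) had 0.992, 1.19 and 1.35 CPM in Cort libraries, 0.734, 0.884 and 0.658 CPM in Dex libraries and 2.59, 2.27 and 3.59 CPM in IL4 libraries, against 1.49, 2.13 and 2.36 CPM in vehicle libraries. Steroid libraries again lay below vehicle, and IL4 libraries overlapped with vehicle. The change was -1.40 ± 0.32 with Dex (adjusted p = 0.0231), -0.77 ± 0.31 with Cort (adjusted p = 0.280) and 0.48 ± 0.28 with IL4 (adjusted p = 0.229), on 6 to 53 reads per library. The Dex call was lost without vehicle 2, vehicle 3, Dex 1 or Dex 3 (changes of -1.54 to -1.24, adjusted p up to 0.112 over all libraries left out). IL4 exceeded Cort by 1.25 ± 0.30 (adjusted p = 0.00861, and 0.0520 without IL4 3) and Dex by 1.89 ± 0.32 (adjusted p = 0.000708).

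At the start of Odc1 no treatment was called. Peak 5 (12:17544155-17545856), which holds the start window shown above, had 10.3, 13.9 and 13.1 CPM in Cort libraries, 15.2, 18.2 and 12 CPM in Dex libraries and 15.7, 13.0 and 13.7 CPM in IL4 libraries, against 15.8, 14.4 and 12.2 CPM in vehicle libraries. The groups overlapped, with changes of -0.17 ± 0.19, 0.10 ± 0.19 and -0.00 ± 0.19 for Cort, Dex and IL4 and 95% intervals from -0.59 to 0.52 over the 3 treatments. Peak 3 (12:17510328-17511453), named after its values were seen, had 2.20, 4.82 and 3.00 CPM in Dex libraries, against 8.30, 4.10 and 5.83 CPM in vehicle libraries, which overlap. Its log2 value was -0.83 ± 0.31 with Dex (adjusted p = 0.149, or 0.0332 with the block), -0.62 ± 0.31 with Cort and -0.36 ± 0.30 with IL4. The other 4 Odc1 peaks had values of -0.87 to 0.02 with Cort, -0.80 to 0.06 with Dex and -0.59 to 0.22 with IL4, and none passed the test.

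**Figure D3:**
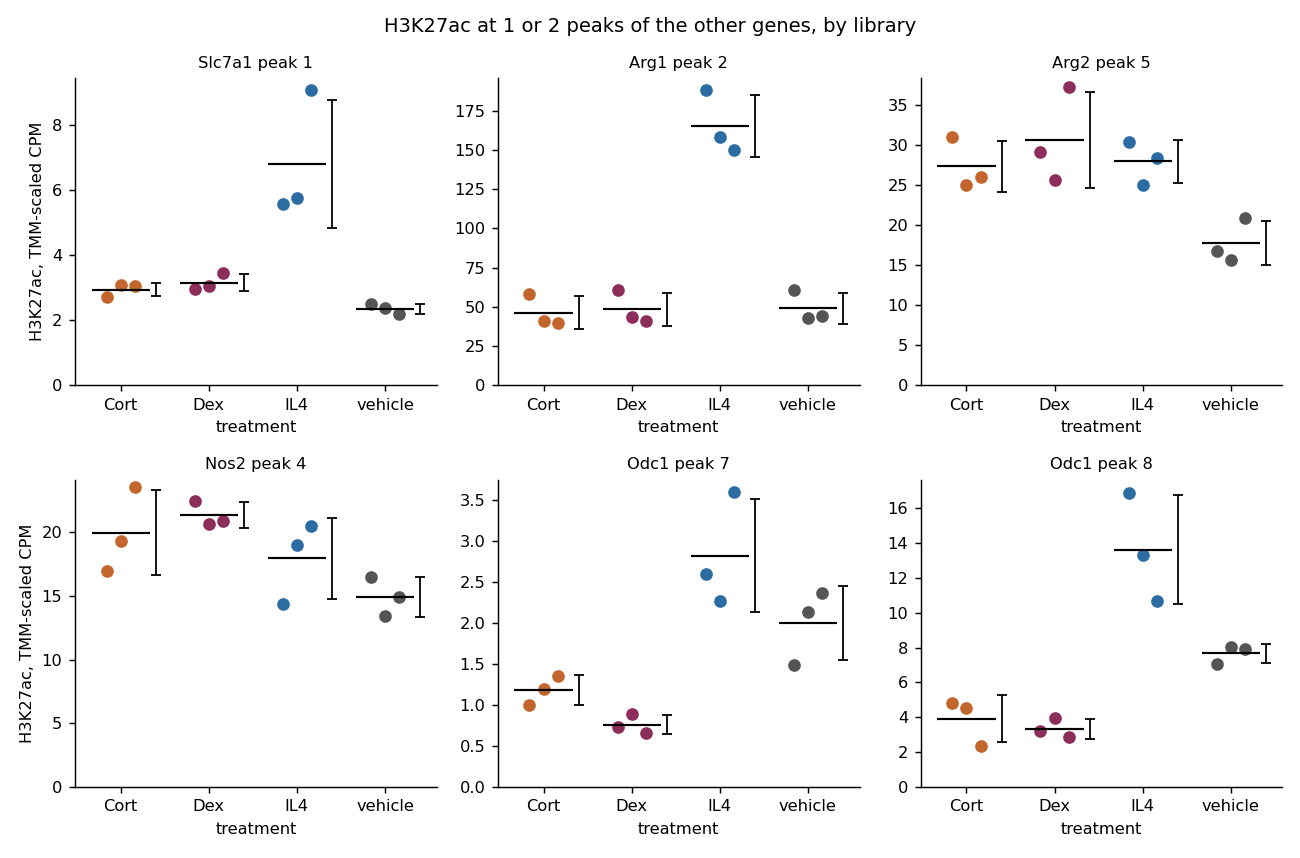
H3K27ac in TMM-scaled CPM (y axes, from 0, scaled per panel) at Slc7a1 peak 1, Arg1 peak 2, Arg2 peak 5, Nos2 peak 4 and Odc1 peaks 7 and 8 in each library (points), with group mean (line) and SD (bar, n = 3), by treatment (x axis). IL4 stands apart at Arg1 peak 2, all treatments exceed vehicle at Arg2 peak 5, and the steroid libraries lie below vehicle at Odc1 peaks 7 and 8.

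Between treatments, 7 of 27 members were higher and 0 lower with IL4 than with Cort, where 13.7% of all tested peaks were higher and 11.3% lower. With the replicate block the members called in either direction were 12, against 40.4% of all tested peaks. With IL4 over Dex, 10 of 27 members were higher and 0 lower, where 14.6% of all peaks were higher and 12.1% lower. Arg1 peak 1, tested mainly through its IL4 reads, is among these 10. With Dex over Cort edgeR called 0 of 27 members and 0 of 59881 peaks (0% of all tested), as did DESeq2, while 793 peaks had an unadjusted p under 0.05 in edgeR.

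Per kb of peak, summed over each gene's peaks (4.88 to 9.22 kb per gene), the order of the genes changed with IL4. In IL4 libraries Arg1 was highest at 20.4 ± 2.79 CPM per kb, followed by Slc7a2 at 12.7 ± 1.19 CPM per kb (SD, n = 3 each). Next came Arg2 at 7.39 ± 0.694, Nos2 at 7.22 ± 1.45, Odc1 at 5.96 ± 0.571 and Slc7a1 at 5.88 ± 0.306 CPM per kb. The libraries of Arg1 and Slc7a2 did not overlap with each other or with the next gene, and neighbours in the order after these overlapped. In vehicle libraries the order was Arg1 at 6.29 ± 1.56, Nos2 at 5.42 ± 0.639, Odc1 at 5.33 ± 0.662, Arg2 at 4.89 ± 0.783, Slc7a1 at 4.71 ± 1.65 and Slc7a2 at 0.849 ± 0.372 CPM per kb. There only Slc7a2 lay apart from its neighbour.

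In the steroid libraries Arg2 was highest, at 7.50 ± 0.942 CPM per kb with Cort and 8.23 ± 1.90 CPM per kb with Dex. Nos2 followed at 6.92 ± 1.31 and 7.65 ± 1.70, then Arg1 at 6.10 ± 1.61 and 6.29 ± 1.59 CPM per kb with Cort and Dex. Slc7a1 came next at 4.45 ± 1.35 and 4.40 ± 1.35, then Odc1 at 3.78 ± 0.451 and 4.01 ± 0.961, and Slc7a2 at 2.23 ± 0.541 and 2.38 ± 0.562 CPM per kb. Only Slc7a2 lay apart from its neighbour, and it stayed lowest with either steroid.

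**Figure D4:**
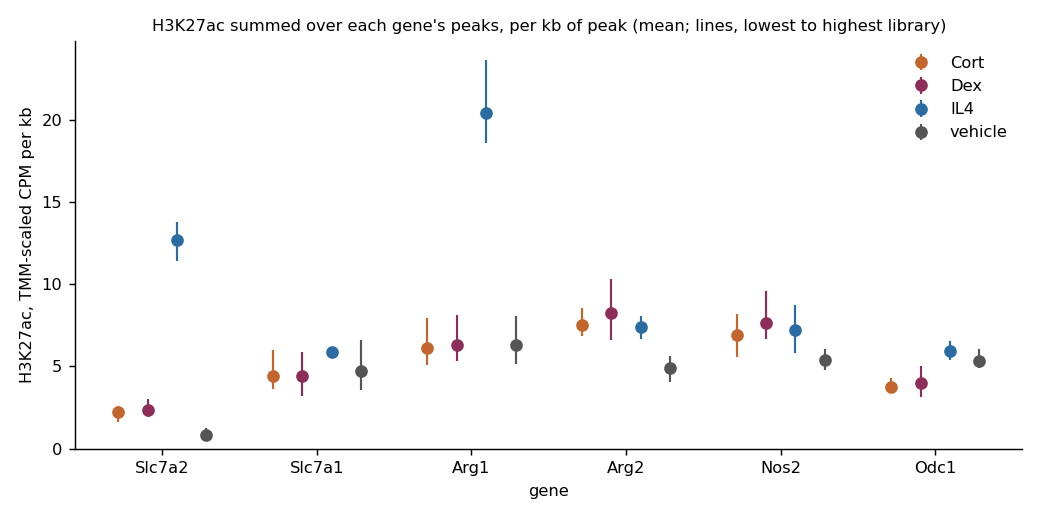
H3K27ac in TMM-scaled CPM per kb (y axis, from 0), summed over the peaks of each gene (x axis), as the mean (point) and the range from the lowest to the highest library (line, n = 3) for each treatment. Slc7a2 is lowest in vehicle, at 0.849 CPM per kb, and lies below Arg1 alone with IL4, at 12.7 CPM per kb.

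The 4 GR members all lay inside H3K27ac members, where 52.9% of all GR peaks overlapped an H3K27ac peak. They were weak, with 1 to 15 reads per library. The GR peak of Slc7a2 (8:40851105-40851180) lies in Slc7a2 peak 1, which was called with both steroids. Its raw counts were 7, 12, 12 and 13 in Cort libraries, 12, 11, 7 and 12 in Dex libraries and 12, 9 and 7 in IL4 libraries, against 3, 3, 4 and 4 in vehicle libraries. Every treated library held more reads than every vehicle library.

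After TMM scaling the same GR peak had 3.24, 5.91, 6.78 and 7.31 CPM in Cort libraries, 6.66, 5.33, 4.17 and 5.58 CPM in Dex libraries and 8.20, 6.02 and 5.27 CPM in IL4 libraries, against 4.25, 3.34, 2.54 and 5.17 CPM in vehicle libraries. Cort and Dex libraries then overlapped with vehicle, and IL4 libraries did not. The change was 0.66 ± 0.38 with Cort (adjusted p = 0.205), 0.59 ± 0.38 with Dex (adjusted p = 0.262) and 0.78 ± 0.42 with IL4 (adjusted p = 0.488). In batch 1 alone it was 0.41 with Cort (adjusted p = 0.706) and 0.76 with Dex (adjusted p = 0.463). In batch 2 alone it was 0.85 with Cort, 0.40 with Dex and 0.75 with IL4, with adjusted p of 0.298, 0.740 and 0.828.

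The GR peak of Nos2 (11:78916550-78916681), in Nos2 peak 4, had raw counts of 13, 15, 12 and 9 in Cort libraries, 5, 9, 4 and 11 in Dex libraries and 6, 12 and 10 in IL4 libraries, against 3, 6, 7 and 1 in vehicle libraries. Every Cort library held more reads than every vehicle library, while Dex and IL4 libraries overlapped with vehicle. In TMM-scaled CPM all groups overlapped with vehicle, and the changes were 0.55 ± 0.40 with Cort (adjusted p = 0.315), -0.20 ± 0.42 with Dex (adjusted p = 0.747) and 0.71 ± 0.46 with IL4 (adjusted p = 0.569). The Dex change turned to 0.75 with total-count scaling and to 0.17 without a count filter. In batch 2 alone, the changes were 0.80, 0.24 and 0.96 for Cort, Dex and IL4, and batch 1 had too few reads for a test.

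Of the 2 tested GR members 0 were called with Cort, Dex or IL4, where 27.6% of the 5183 tested GR peaks were called with Cort, 30.3% with Dex and 0% with IL4 (612 at an unadjusted p under 0.05, and 4 called by DESeq2). With Dex over Cort 0 of 2 were called and 0% of all (468 at an unadjusted p under 0.05, and 0 called by DESeq2). The calls depend on the scaling. Total-count scaling called both GR members higher with Cort and Slc7a2 higher with Dex, and with it the median change of all GR peaks was 0.96 for Cort and 0.86 for Dex, where TMM scaling gave 0.17 and -0.12. With it 30.0% of all tested GR peaks were called higher with Cort (1556 higher and 24 lower, where TMM gave 662 and 769) and 37.7% with Dex (1954 higher and 25 lower, where TMM gave 763 and 809). The change there was 1.49 with Cort (adjusted p = 0.0101) and 1.59 with Dex (adjusted p = 0.00529) at the Slc7a2 peak, and 1.33 with Cort (adjusted p = 0.0407) at the Nos2 peak.

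Both Arg1 GR peaks failed the count filter. The one in Arg1 peak 2 (10:24930312-24930387) had 8, 12, 8 and 6 reads in Cort libraries, 1, 6, 7 and 2 in Dex libraries and 7, 7 and 6 in IL4 libraries, against 4, 11, 7 and 5 in vehicle libraries. The groups overlapped in reads. In TMM-scaled CPM all Dex libraries, at 0.555, 2.91, 4.17 and 0.929 CPM, lay below all vehicle libraries, at 5.66, 12.3, 4.45 and 6.46 CPM. This separation depended on the TMM factors, of 1.138 to 1.721 in Dex and 0.392 to 0.8415 in vehicle libraries. Dex 2 held 6 of 1208021 reads in GR peaks and vehicle 4 held 5 of 1981582, so without the factors the groups overlapped. With the filter waived for the 4 members, an alternative added after the data were seen, this peak was lower with Dex by -1.70 ± 0.51 (adjusted p = 0.0192), where 15.6% of all peaks in that fit were lower, and in batch 1 alone by -2.21 ± 0.84 (adjusted p = 0.0403). The share of all peaks called in the batch 1 fit is not given here. With no count filter on any peak the Arg1 peak 2 site was not called with Dex (-1.33 ± 0.57, adjusted p = 0.143). Its changes with Cort and IL4, of -0.68 ± 0.46 and -0.44 ± 0.55, did not pass. The one in Arg1 peak 3 (10:24950432-24950507) held 1 to 12 reads per library and had values of 0.01 ± 0.56 with Cort, -0.03 ± 0.57 with Dex and -0.34 ± 0.67 with IL4, none called.

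**Figure D5:**
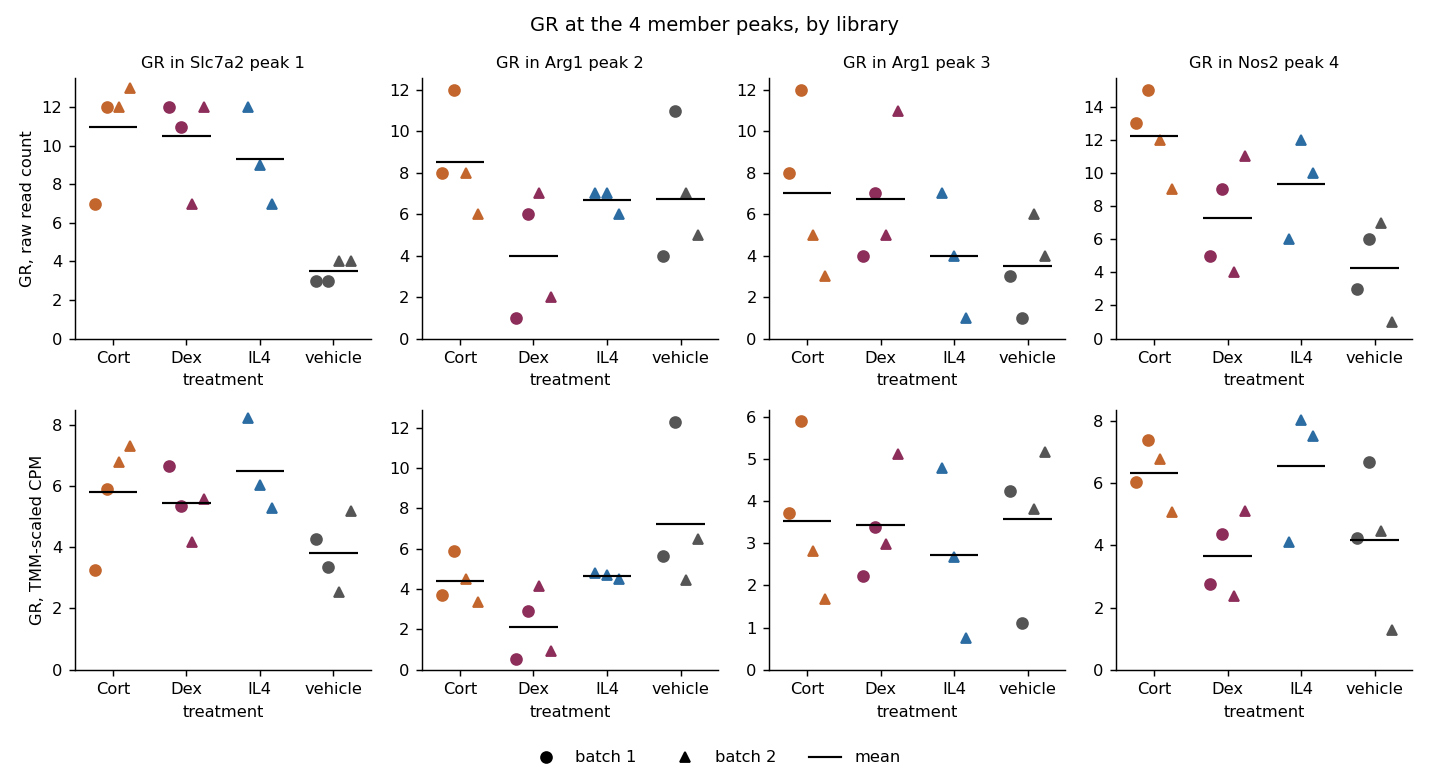
GR at the 4 member peaks in each library, as raw read counts (top row, y axes from 0) and TMM-scaled CPM (bottom row), by treatment (x axes), with circles for batch 1, triangles for batch 2 and a line at the mean. At the Slc7a2 peak the treated libraries hold 7 to 13 reads and the vehicle libraries 3 or 4, and the scaled values of Cort and Dex overlap with vehicle.

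The wider arginine and polyamine pathway was described by a list of 52 further genes, of which 42 had a tested H3K27ac peak, with 133 peaks in all. IL4 raised 20 of these peaks (15.0%) and lowered 21 (15.8%), where 14.7% and 12.9% of all tested peaks were called. Dex raised 6 (4.51%) and lowered 1 (0.752%), where 2.90% and 2.34% of all were called, and Cort raised 1 (0.752%) and lowered 0, where 1.18% and 0.376% were called. The shares with IL4 were near those over all peaks. The list medians were -0.05 with IL4, -0.03 with Dex and -0.04 with Cort.

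Several of its called peaks were assigned, as the nearest gene, to genes next to the members in the pathway. Those of Azin2, Gatm, Azin1, Slc38a9 and Amd1 below lie 7.9 to 13.1 kb outside the gene span. With IL4, H3K27ac rose at Azin2, an antizyme inhibitor (1.62 ± 0.24, adjusted p = 0.000347), and at Gatm, which uses arginine for creatine synthesis (1.13 ± 0.18, adjusted p = 0.000623). It also rose at Sms, the spermine synthase (1.23 ± 0.26, adjusted p = 0.00378), and at Qdpr, which recycles the nitric oxide synthase cofactor (1.10 ± 0.21, adjusted p = 0.00186). It fell at Slc7a7, a cationic amino acid exporter (-1.11 ± 0.12, adjusted p = 4.69e-05), and at Azin1, another antizyme inhibitor (-1.44 ± 0.21, adjusted p = 0.000339). It also fell at Slc38a9, a lysosomal arginine sensor (-1.49 ± 0.30, adjusted p = 0.00266), and at the polyamine genes Smox (-0.95 ± 0.20, adjusted p = 0.00385) and Amd1 (-0.81 ± 0.18, adjusted p = 0.00544).

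With the steroids the called peaks of the list were fewer. H3K27ac rose at Paox, a polyamine oxidase, by 0.92 ± 0.14 with Cort (adjusted p = 0.00395) and 0.88 ± 0.14 with Dex (adjusted p = 0.00261). With Dex it also rose at Pts, of tetrahydrobiopterin synthesis (1.82 ± 0.35, adjusted p = 0.0101), and at Oaz2, an ornithine decarboxylase antizyme (1.13 ± 0.26, adjusted p = 0.0229), and fell at another peak of Smox, the spermine oxidase (-1.19 ± 0.26, adjusted p = 0.0191). A peak 8.7 kb from Agmat, named for agmatine hydrolysis (4:141735313-141738004), rose by 0.67 ± 0.15 with Dex (adjusted p = 0.0184) and fell with IL4 (-0.76 ± 0.15, adjusted p = 0.00211). It averaged 48.8 ± 5.20 CPM with Dex and 18.1 ± 1.40 CPM with IL4, against 30.7 ± 3.32 CPM with vehicle (SD, n = 3 each).

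Only 6 genes of the list had a tested GR peak, 1 each. With Dex, GR rose at the Agmat site (1.37 ± 0.44, adjusted p = 0.0282), inside the same H3K27ac peak. It also rose 11.3 kb from Amd1 (0.95 ± 0.33, adjusted p = 0.0417), where the libraries overlapped with vehicle. These are 2 of 6 peaks called, where 30.3% of all tested GR peaks were called with Dex. With Cort, GR fell at Ddah1, of methylarginine breakdown (-1.63 ± 0.58, adjusted p = 0.0479), where the libraries overlapped with vehicle. The vehicle libraries there averaged 9.21 CPM with an SD of 12.8. This is 1 of 6 peaks called, where 27.6% of all tested GR peaks were called with Cort.

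Markers of cell types were read beside these results. Summed H3K27ac at the 6 macrophage markers named above was 2872 to 3244 CPM with Cort, 2830 to 3195 with Dex and 2437 to 2684 with IL4, against 2527 to 2941 CPM with vehicle. At the 3 lymphoid markers with a peak it was 180 to 232 CPM with Cort, 169 to 212 with Dex and 141 to 206 with IL4, against 219 to 292 CPM with vehicle, where Dex and IL4 libraries lay below all vehicle libraries; Cd3e had no peak. At the 5 dendritic cell markers, all with peaks, it was 311 to 419 CPM with Cort, 324 to 406 with Dex and 196 to 266 with IL4, against 315 to 467 CPM with vehicle. At the 4 endothelial markers, all with peaks, it was 211 to 258 CPM with Cort, 205 to 264 with Dex and 259 to 281 with IL4, against 240 to 254 CPM with vehicle. Of the fibroblast markers 1 of 5 had a peak (none at Col1a1, Col1a2, Dcn or Lum), at 65.3 to 83.3 CPM with Cort, 70.0 to 83.3 with Dex and 69.1 to 87.9 with IL4, against 53.0 to 61.8 CPM with vehicle. Neutrophil markers (2 of 5 with a peak, none at S100a9, Mpo or Ly6g) summed to 9.27 to 14.3 CPM with Cort, 10.4 to 15.1 with Dex and 6.56 to 12.1 with IL4, against 4.26 to 9.41 CPM with vehicle. Mast cell and basophil markers (1 of 5, none at Kit, Mcpt8, Fcer1a or Ms4a2) summed to 2.44 to 4.26 CPM with Cort, 2.57 to 4.68 with Dex and 2.09 to 4.81 with IL4, against 0.901 to 2.92 CPM with vehicle. Besides the lymphoid markers, libraries lay apart from all vehicle libraries at the dendritic markers (IL4 lower) and the endothelial markers (IL4 higher). They also did so at the fibroblast marker (Cort, Dex and IL4 higher) and the neutrophil markers (Dex higher). The part of these differences in the changes at the arginine genes was not tested.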

How the data were processed

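The authors deposited raw counts of reads for each peak of 1 peak set per assay. Per the submitters' processing notes, which name the build mm10, their tools were MACS2, featureCounts, fastp, SAMtools and Bowtie2; how peaks were merged is not given in the sources used here. All 27 per-sample columns were matched to a library, those headed C to vehicle by elimination; the input library was not analysed here. Peaks were assigned to 21887 protein-coding genes of a RefSeq mm10 table. Counts were tested with edgeR 4.0.16 (R 4.3.3; filterByExpr, TMM, quasi-likelihood F test, all libraries of an assay in 1 fit, batch as covariate for GR), after tests on simulated data. Standard errors were taken as |log2 change| divided by the root of F. Residuals of H3K27ac libraries with the same replicate number correlated at 0.268 to 0.678 in 18 pairs, and at -0.449 to 0.0406 in other pairs. No label states a pairing, and the main H3K27ac fit held treatment alone and left it out. The fit with the replicate number as a block, which takes it in, was an alternative. DESeq2 1.42.0, other scalings, filters, gene distances and left-out libraries were alternatives. The text gives every Slc7a2 peak, and of other genes the most abundant peak, the smallest p per comparison against vehicle and every called peak, with up to 10 pathway genes per comparison. Members, lists and this rule were chosen with earlier results of these data known. Some listed marker genes are not reported here.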

Additional observations from a re-analysis of the deposited data

How the results depend on the processing

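Of 2664 combinations of a member peak, a comparison and an alternative, none turned a called change round. Of them 2445 kept their direction and their side of the threshold, 72 lost a call, 30 gained one, and 117 changed sign with no call on either side. Most combinations concern a change not called in the main fit, which could not lose a call. The tally thus does not measure how firm the calls were. The H3K27ac members called with Cort were 1, but 2 in DESeq2 and 5 with the replicate block. Of all 59881 tested peaks the main fit called 704 higher and 225 lower, DESeq2 1217 and 695, and the block 3858 and 3673. With Dex the members called were 5, but 8 with the block. IL4 over Cort gave 7, but 12 with the block, and IL4 over Dex gave 10. Counting only members within 20 kb of their gene left 3 for Dex and 6 for IL4 over Dex. That alternative refitted nothing and only left out members farther away, such as Odc1 peaks 7 and 8, so no call changed. Leaving out each library gave 0 to 1 members for Cort, 1 to 7 for Dex and 5 to 10 for IL4. The shares of all tested peaks called in those fits are not given here, so these counts are not a result about the members alone. The GR members called were 0, but 2 with Cort and 1 with Dex under total-count scaling. With Dex, the Arg1 peak 2 site alone was called in batch 1 alone, with the filter waived, and without IL4 1 or IL4 3, which gave 1 member each and 0 without the other libraries. GR libraries with the same number correlated at -0.197 to 0.187. With 2 libraries per treatment and batch in that comparison, the other pairs mirror these values, so they cannot decide whether the numbers pair the libraries. The block there called 0 of 2. Library factors from the least-read 25% of H3K27ac peaks gave a median IL4 change of -0.17 over all peaks, where TMM gave -0.02, and calls of 6676 higher and 9486 lower, where TMM gave 8827 and 7711, with 8 members higher and 0 lower. The same factors moved the median to -0.28 for IL4 over Cort (7 members higher, 0 lower) and -0.24 for IL4 over Dex (9 higher, 0 lower). GR members rest on 1 to 15 reads per library, and whether modest changes could be detected at this depth was not tested. The causes of these differences were not tested.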
